A study of Mus musculus with 7 samples.

Results

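The genes described here are the myosin light chains and the kinases that phosphorylate them. They were chosen by gene symbol: Myl1, Myl2, Myl3, Myl4, Myl6, Myl7, Myl9, Mylpf, Mylk and Mylk3. No measured value entered the rule, but earlier results of these data were known when the genes were chosen. All 10 have a value, of 15967 rows in the table of the day-6 comparison, and all 10 passed the minimum level set below. RNA was measured by poly-A sequencing of the sinoatrial node, the small region of the right atrium that starts each heartbeat, from Sv129 mice at postnatal 3 weeks. The Cre library came from mice of the genotype Baf250af/f;Hcn4CreERT2, taken 6 days after tamoxifen. These mice carry floxed Baf250a (Arid1a, a subunit of the BAF chromatin remodeller) and a tamoxifen-activated Cre driven from Hcn4, a gene of pacemaker cells. Recombination is limited to cells in which that gene is active. The control library came from Baf250af/f mice with the same floxed alleles and no Cre, and whether they received tamoxifen is not given in the sources used here. There was 1 library per genotype, the number of mice in each is not given, and 5 further libraries of a time series were not analysed here.

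Each myosin head is a heavy chain whose lever arm carries an essential and a regulatory light chain. Muscles differ in which light chain genes they use, and light chains are therefore classic markers of heart chamber and muscle type. In adult rodent hearts atrial muscle uses Myl4 as essential and Myl7 as regulatory chain, and ventricular muscle uses Myl3 and Myl2. Phosphorylation of the regulatory chain by a calmodulin-dependent kinase switches on contraction in smooth muscle and tunes its force in the heart, and a phosphatase with a myosin-targeting subunit reverses it.

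Values are FPKM, sequenced fragments scaled to the length of the transcript in kilobases and to 1000000 mapped ones, which can be compared between genes because they are per length. Differences are log2 ratios of FPKM + 1, Cre over control, and a gene is called higher or lower where they differ at least 2-fold (the size rule). The rule was applied where the 2 libraries averaged 1 FPKM or more (the minimum level). With 1 library on each side no test of the genotypes is possible, no value has an error, and read depth is unknown. By this size rule 815 of 13407 genes (6.08%) were higher with Cre and 1397 (10.4%) lower. With both libraries brought to the same upper quartile, which shifts the median ratio over all genes (log2) to 0.14 from -0.07, the counts were 1398 higher and 1093 lower. Centring on fibroblast and endothelial genes gave 321 higher and 2954 lower, and centring on contractile genes gave 83 higher and 6311 lower. The contractile list also holds some genes of calcium handling and of mitochondria.

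The libraries also differed in other ways. Arid1a, the floxed gene, had 12.3 FPKM in the Cre library and 34.9 FPKM in the control library. All 13 T cell and thymus markers were lower in the Cre library, where they summed to 7.40 FPKM, against 3031 FPKM in the control library, with 12 of 13 below 1 FPKM in the Cre library and none at 0 in either. Of 11 lung and airway markers 10 were higher, with sums of 18675 FPKM in the Cre library and 4203 FPKM in the control library. Xist, expressed from the inactive X chromosome, had 93.2 FPKM in the Cre library and 0.379 FPKM in the control library, so sex cannot be told apart from genotype. Hcn4, the defining channel of the node, was at 0.719 FPKM in the Cre library and 0.605 FPKM in the control library, and 5 of 7 node markers reached the minimum level. Fewer cells of a type cannot be told apart from less RNA per cell.

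The sequences before the transcription starts of 4 light chain genes are shown because the series title names an Nkx2-5-directed contractile programme. These 4 were picked because each holds a match to a motif searched, and none holds all of the motifs. Each run is the 250 bases before the start in RefSeq, on GRCm38.p6, written 5′ to 3′ on the strand of the gene. Capitals mark matches, on either strand, to AAGTG (the core bound by Nkx2-5), GATAA (bound by GATA factors) and the CArG box (bound by SRF).
Myl7, chr11:5898783-5899032, minus strand: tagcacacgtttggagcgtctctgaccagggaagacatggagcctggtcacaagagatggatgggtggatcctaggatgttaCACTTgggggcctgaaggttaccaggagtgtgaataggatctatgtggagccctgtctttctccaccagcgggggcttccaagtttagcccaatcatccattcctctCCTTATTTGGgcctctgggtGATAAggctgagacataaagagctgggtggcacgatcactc
Myl4, chr11:104550413-104550662, plus strand: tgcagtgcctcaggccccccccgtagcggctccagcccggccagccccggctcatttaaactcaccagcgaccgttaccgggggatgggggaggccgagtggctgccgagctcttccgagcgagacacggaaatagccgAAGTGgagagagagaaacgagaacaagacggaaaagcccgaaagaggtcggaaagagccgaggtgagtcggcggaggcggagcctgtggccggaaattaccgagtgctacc
Myl3, chr9:110763428-110763677, plus strand: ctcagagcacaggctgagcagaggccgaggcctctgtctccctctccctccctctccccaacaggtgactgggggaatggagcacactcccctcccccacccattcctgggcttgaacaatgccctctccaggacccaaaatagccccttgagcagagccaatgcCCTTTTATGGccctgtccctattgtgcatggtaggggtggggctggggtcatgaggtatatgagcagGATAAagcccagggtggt
Myl9, chr2:156775214-156775463, plus strand: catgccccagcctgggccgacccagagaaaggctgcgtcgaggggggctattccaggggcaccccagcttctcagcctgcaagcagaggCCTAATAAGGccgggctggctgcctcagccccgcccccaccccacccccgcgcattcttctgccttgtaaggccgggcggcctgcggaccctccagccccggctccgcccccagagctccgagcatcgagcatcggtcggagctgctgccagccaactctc
A CArG box was found in 3 of 8 member windows, those of Myl7, Myl3 and Myl9, and in 1.47% of all 32851 windows of this length. It lay 52 to 61 bases before the start in Myl7, 76 to 85 in Myl3 and 152 to 161 in Myl9. AAGTG was found in 2 of 8, the windows of Myl7 and Myl4, against 40.7% of all windows, and GATAA in 2 of 8, those of Myl7 and Myl3, against 22.6%. A MEF2 site, the fourth motif searched, was found in none of the 8 and in 2.92% of all windows. No match overlapped another, and the windows of Mylpf, Myl6, Mylk and Mylk3 held no match. The windows of Myl1 and Myl2 in the table belong to starts other than that of the transcript measured, and they were left out. A match of this kind is a description of the letters and does not show a bound site.

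The light chains and kinases lay mostly above equal expression in the Cre library, and the ventricular pair was higher while the atrial pair was nearly level. Myl2, Myl3 and Mylk were at least 2-fold higher, so 3 of 10 members (30%) passed the size rule upwards, beside 6.08% of all genes. Mylpf was lower, 1 of 10 members (10%), beside 10.4% of all genes. The other 6 members lay above equal expression without passing the rule. Centred on contractile genes, Myl2, Myl3 and Mylk stayed above equal expression and the other 7 members lay below it. The median log2 ratio of the members was 0.61, and that of all genes tested was -0.07 with quartiles of -0.52 and 0.38. The 10 genes together made up 3.12% of the summed FPKM in the Cre library and 2.27% in the control library. The sums cover genes with a completed comparison, which leaves out Nppa and Myh6. By the significance call in the authors' deposited table, 0 of the 10 passed, beside 0.564% of all genes, and the smallest q-value among them was 0.349, for Mylpf. That test compares 2 libraries and not the genotypes.

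**Figure D1:**
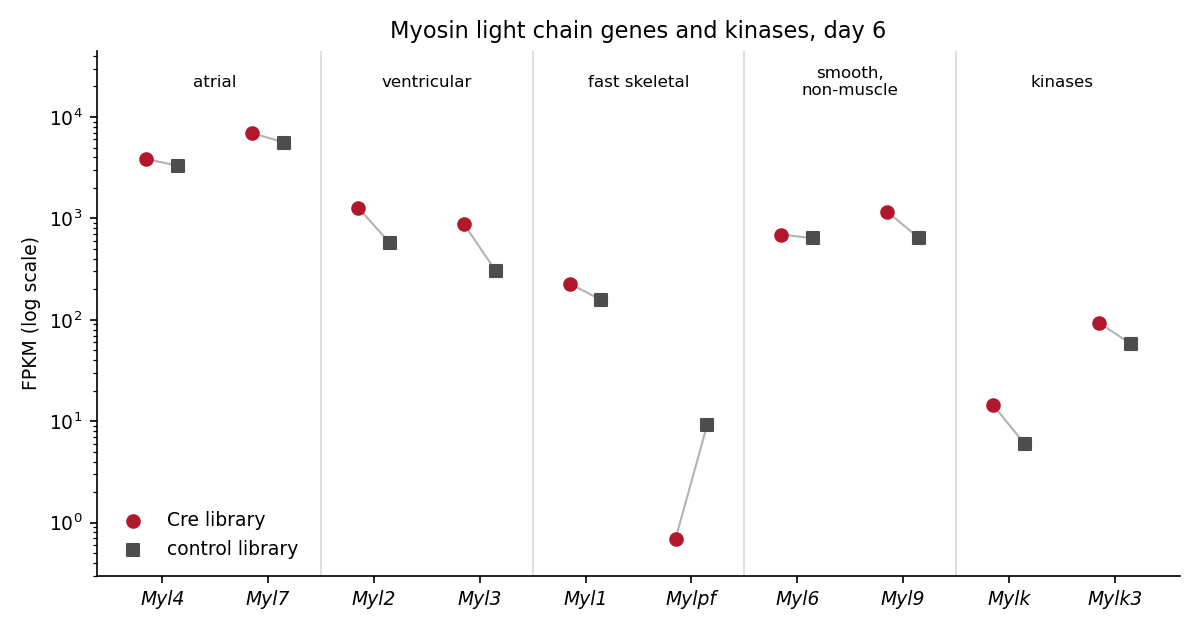
FPKM on a log scale of each light chain and kinase gene in the Cre library (red circles, left of each pair) and the control library (grey squares, right), 1 library each, grouped by muscle class. The atrial chains are highest in both libraries, and Mylpf is the only member below its control value, at 0.691 FPKM in the Cre library and 9.27 FPKM in the control library.

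The atrial light chains dominated the family in both libraries. Myl7, the atrial regulatory chain, had 6940.2 FPKM in the Cre library and 5603 FPKM in the control library, giving a log2 ratio of 0.31. Among the 15965 genes with a completed comparison, which leaves out Nppa, it ranked number 2 in the Cre library and number 1 in the control library. Myl4, the atrial essential chain, had 3838 FPKM in the Cre library and 3310.04 FPKM in the control library, giving a log2 ratio of 0.21, and ranked number 6 in the Cre library and number 4 in the control library. Neither approached the size rule, and both ratios turn negative when centred on contractile genes or on fibroblast and endothelial genes. P-values in the authors' deposited table were 0.745 (Myl7) and 0.817 (Myl4). The pair kept nearly the same proportion to each other, with 1.81 FPKM of Myl7 per FPKM of Myl4 in the Cre library and 1.69 in the control library. Both genes lie on mm9 chromosome 11, Myl7 from 5796639 to 5798785 and Myl4 from 104411976 to 104448533.

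Both ventricular light chains passed the 2-fold threshold upward. Myl3, the ventricular essential chain, which slow skeletal muscle also uses, had 884 FPKM in the Cre library and 304 FPKM in the control library. Its log2 ratio of 1.54 was the highest of the 10. Myl2, the ventricular regulatory chain, had 1280.2 FPKM in the Cre library and 572 FPKM in the control library, giving a log2 ratio of 1.16. Among all genes Myl3 ranked 56 in the Cre library and 266 in the control library, and Myl2 ranked 25 in the Cre library and 139 in the control library. P-values in the authors' deposited table were 0.0620 for Myl3 and 0.156 for Myl2, with q-values of 0.848 for Myl3 and 0.999 for Myl2. Myl3 lies on mm9 chromosome 9 from 110666184 to 110672298 and Myl2 on chromosome 5 from 122550988 to 122556863. Both stayed above equal expression after centring, but Myl2 no longer passed the size rule under either centring and Myl3 did not when centred on contractile genes.

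The atrial to ventricular ratio within a library does not depend on how the libraries were scaled to each other. The summed FPKM of Myl4 and Myl7 was 4.98 times that of Myl2 and Myl3 in the Cre library and 10.2 times in the control library, 2.04-fold lower in the Cre library. For the essential pair, Myl4 over Myl3, the ratio was 4.34 in the Cre library and 10.9 in the control library, 2.51-fold lower in the Cre library. For the regulatory pair, Myl7 over Myl2, it was 5.42 in the Cre library and 9.80 in the control library, a 1.81-fold difference that falls short of the size rule. Summed by class, the ventricular chains had 2164 FPKM in the Cre library and 875 FPKM in the control library, giving a log2 ratio of 1.30. The atrial chains had 10778 FPKM in the Cre library and 8913 FPKM in the control library, giving a log2 ratio of 0.27. No replicate shows how far such a ratio varies between dissections of the node.

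**Figure D2:**
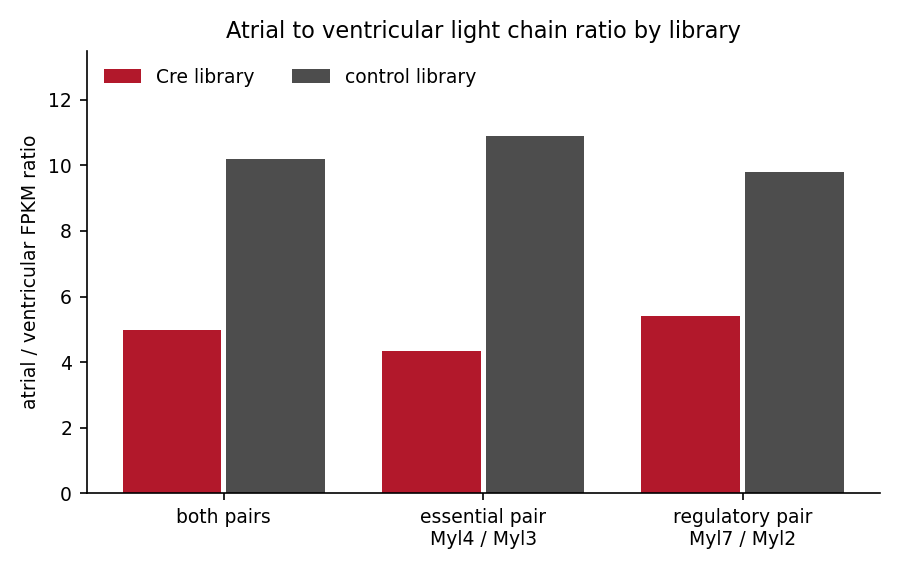
Ratio of atrial to ventricular light chain FPKM in the Cre library (red, left) and the control library (grey, right), 1 library each, for both pairs summed and for the essential and regulatory pairs. All 3 ratios are lower in the Cre library, most so for the essential pair, at 4.34 against 10.9 in the control library.

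Other chamber markers can be set beside this ratio. The median log2 ratio was 0.71 over the ventricular markers tested and 0.67 over the atrial markers tested. Of 4 ventricular markers tested 1 was higher, beside 6.08% of all genes. It was Myh7, a slow cardiac heavy chain, at 139.8 FPKM in the Cre library and 45.2 FPKM in the control library. Lbh, the next most abundant, had 40.7 FPKM in the Cre library and 43.6 FPKM in the control library (log2 ratio -0.10). Irx4, a transcription factor of ventricular muscle, was weak in both, at 1.46 FPKM in the Cre library and 0.459 FPKM in the control library, below the minimum level. Of 6 atrial markers tested 1 was higher, again beside 6.08% of all genes. It was Kcnj5, at 32.2 FPKM in the Cre library and 15.4 FPKM in the control library. Sln, an inhibitor of the calcium pump in atrial muscle, had 2239.8 FPKM in the Cre library and 2579.9 FPKM in the control library (log2 ratio -0.20). Bmp10, a growth factor of the right atrium, had 218 FPKM in the Cre library and 149.97 FPKM in the control library, giving a log2 ratio of 0.54. Nppa and Myh6, a cardiac heavy chain, had a comparison marked as not completed, so neither can be compared. Whether ventricular tissue in a dissection had a part in the light chain ratio was not tested.

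Within the contractile genes of working myocardium atrial and ventricular light chains stood at different places. The list of contractile genes is broad and holds genes of calcium handling, such as the calcium pump Atp2a2, and of mitochondria, such as Cox6a2. It also holds Mb, the oxygen store of muscle, and it holds no light chain. All 25 genes of the list were tested and lay above equal expression. At least 2-fold higher were 10 of them, beside 6.08% of all genes. Their median log2 ratio over all 25 was 0.88, with a range of 0.04 (Mb) to 2.09. Myl4 had a lower log2 ratio than 24 of these 25 genes, and Myl7 a lower one than 23. Myl3 had a higher log2 ratio than 22 of them and Myl2 a higher one than 15. The contractile genes were also higher in the Cre library together with the lung and airway markers, and the part of either in the values of the light chains was not tested.

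**Figure D3:**
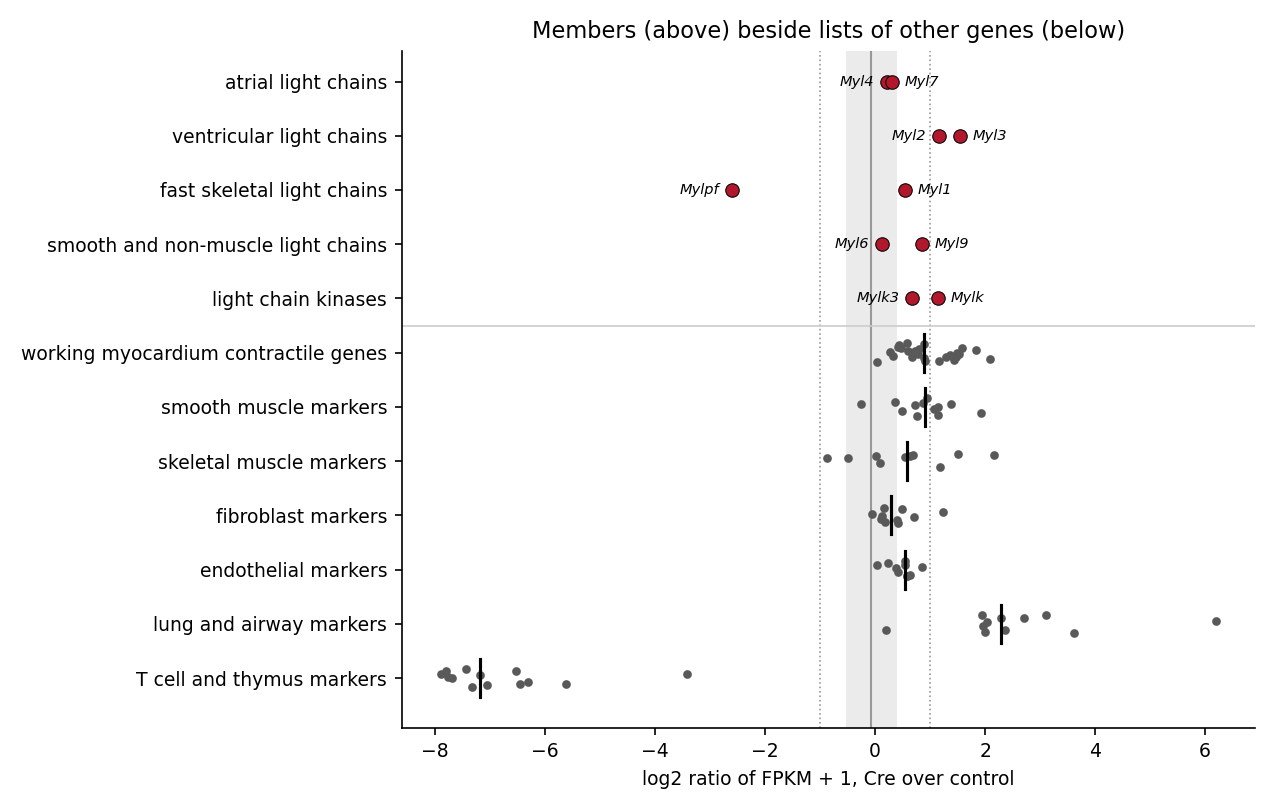
Log2 ratios of FPKM + 1, Cre over control, of the 10 members by class (red, above) and of genes in 7 other lists (grey, below, with black bars at the medians). The grey band is the span between the quartiles of all tested genes, the grey line their median of -0.07 and the dotted lines the 2-fold rule. The contractile list has a median of 0.88, between the atrial and the ventricular light chains, and T cell and thymus markers lie far to the left.

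The make-up of the essential and regulatory chains shows the same values as shares. Of the summed FPKM of the 4 essential chains, Myl4 made up 68.0% in the Cre library and 75.1% in the control library, and Myl3 made up 15.7% in the Cre library and 6.89% in the control library. Myl6 made up 12.3% of them in the Cre library and 14.5% in the control library, and Myl1 4.04% in the Cre library and 3.54% in the control library. Of the 4 regulatory chains, Myl7 made up 73.9% in the Cre library and 82.1% in the control library. Myl2 made up 13.6% in the Cre library and 8.38% in the control library, and Myl9 12.4% in the Cre library and 9.40% in the control library. The balance between the kinds was close, with 0.601 FPKM of essential chains per FPKM of regulatory chains in the Cre library and 0.646 in the control library. In both libraries the atrial isoform was therefore the major chain of its kind. The ventricular isoform of either kind took second place in the Cre library. In the control library Myl3 stood behind Myl6, and Myl2 behind Myl9.

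**Figure D4:**
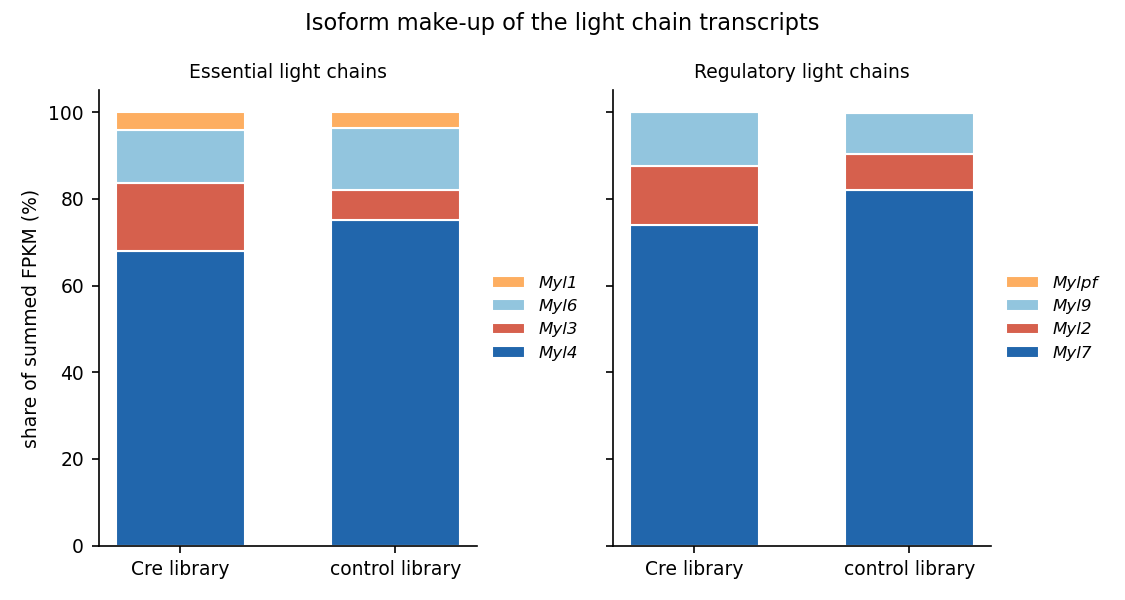
Share of each gene in the summed FPKM of the essential (left panel) and regulatory (right panel) light chains, in percent, with the Cre library left of the control library in each panel. The ventricular share (Myl3 and Myl2) of the essential and of the regulatory chains is 15.7% and 13.6% in the Cre library and 6.89% and 8.38% in the control library, and Mylpf is too small to be seen.

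The fast skeletal light chains did not behave alike. Myl1, the essential chain of fast skeletal muscle, had 228 FPKM in the Cre library and 156 FPKM in the control library, giving a log2 ratio of 0.54. Mylpf, the regulatory chain that pairs with it in fast fibres, had 0.691 FPKM in the Cre library and 9.27 FPKM in the control library, giving a log2 ratio of -2.60. Mylpf was thus the weakest member in the Cre library and the only member lower there, and the authors' deposited table lists it with p = 0.0108 and q = 0.349. Its mean lies just under 5 FPKM, so a minimum of that size removes it. Myl1 lies on mm9 chromosome 1 from 66970869 to 66991630 and Mylpf on chromosome 7 from 134355121 to 134357801.

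Myl1 stood far above most other genes of fast skeletal muscle in level. Tnnc2 and Atp2a1, the fast troponin C and the fast calcium pump, were at 0.172 and 0.403 FPKM in the Cre library and 0.131 and 0.379 FPKM in the control library, and Acta1, skeletal actin, had 3.00 FPKM in the Cre library and 1.57 FPKM in the control library. These 3 were singled out after their values were seen. Of the whole skeletal list 10 of 12 genes with a value reached the minimum level, and none was at 0. Of these 10 genes 3 were higher, beside 6.08% of all genes, and 0 were lower, beside 10.4%. By the mean of both libraries the most abundant was Ckm, the muscle creatine kinase that the heart also expresses, at 438 FPKM in the Cre library and 302 FPKM in the control library, followed by Casq1 at 15.7 FPKM with Cre and 9.36 FPKM in the control. Tnni2, the fast troponin I, had 19.9 FPKM in the Cre library and 3.66 FPKM in the control library, the opposite direction to Mylpf. Of the 10 tested, 8 lay above equal expression. Pvalb and Actn3 lay below it, as Mylpf did, with log2 ratios of -0.87 and -0.49 that did not pass the size rule. The log2 ratio of Mylpf was lower than that of all 10 skeletal genes tested.

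A further regulatory chain was lower too. Myl10, described as the regulatory light chain of precursor lymphocytes, had 0.0544 FPKM in the Cre library and 7.64 FPKM in the control library, giving a log2 ratio of -3.03. Its p-value in the authors' deposited table was 0.114. The T cell and thymus markers differed in the same direction, led in level by Rag1 at 0.832 FPKM in the Cre library and 436 FPKM in the control library, Cd8b1 at 0.864 FPKM with Cre and 417 FPKM in the control, and Tcf7 at 1.41 FPKM with Cre and 384 FPKM in the control. Their part in the values of Mylpf and Myl10 was not tested.

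Of the smooth and non-muscle pair, the smooth muscle regulatory chain lay well above its control value and the shared essential chain close to it. Myl9, the regulatory chain of smooth muscle, had 1166 FPKM in the Cre library and 642 FPKM in the control library, giving a log2 ratio of 0.86, just short of the size rule. It passed the rule at 1.10 with the same upper quartile. Myl6, the essential chain that smooth muscle shares with most other cells, had 693 FPKM in the Cre library and 637 FPKM in the control library, giving a log2 ratio of 0.12 that turns negative under both centrings. Myl9 was therefore 1.68 times as abundant as Myl6 in the Cre library and 1.01 times in the control library. Myl9 lies on mm9 chromosome 2 from 156601199 to 156607393 and Myl6 on chromosome 10 from 127927916 to 127930881.

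Smooth muscle markers without a light chain had a median log2 ratio of 0.91, with 11 of 12 above equal expression. Of the 12 markers 5 were higher, beside 6.08% of all genes, and 0 were lower, beside 10.4%. Their summed level was 1434 FPKM in the Cre library and 851 FPKM in the control library, 1.69 times as much, beside 1.82 times for Myl9. The most abundant were smooth muscle actin Acta2, at 528 FPKM in the Cre library and 319.8 FPKM in the control library, and Tagln at 336 FPKM with Cre and 259 FPKM in the control. Next was Des, at 232 FPKM with Cre and 119.99 FPKM in the control. Heart muscle also expresses Des, so its part in the sum is not particular to smooth muscle. The lung and airway markers, a tissue with smooth muscle of its own, were higher as well, and their part in the value of Myl9 was not tested. Myl12b, a non-muscle regulatory chain, had 109 FPKM in the Cre library and 156 FPKM in the control library, giving a log2 ratio of -0.52 that is uncertain because of a close copy, Myl12a, which was not analysed here. Myl6b, a second non-muscle essential chain, was weak, at 1.44 FPKM in the Cre library and 1.48 FPKM in the control library.

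Of the kinases, the smooth muscle and non-muscle form differed more than the cardiac form. Mylk, the calmodulin-dependent kinase of smooth muscle and non-muscle cells, had 14.5 FPKM in the Cre library and 5.96 FPKM in the control library, giving a log2 ratio of 1.15 that is 0.83 with a pseudocount of 5. Mylk3, the cardiac kinase, known to phosphorylate Myl2, had 93.6 FPKM in the Cre library and 58.3 FPKM in the control library, giving a log2 ratio of 0.67. The cardiac form was the more abundant in both libraries, 6.47 times the level of Mylk in the Cre library and 9.78 times in the control library. Mylk4, a less studied kinase of the family, had 6.18 FPKM in the Cre library and 4.63 FPKM in the control library, and Mylk2, the skeletal kinase, stayed below the minimum level. Mylk lies on mm9 chromosome 16 from 34785035 to 35002520 and Mylk3 on chromosome 8 from 87848827 to 87889223. Mylk has a short product, telokin, from its last exons, and a value per gene does not separate it from the kinase.

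Genes of the myosin phosphatase and its control, a list that also holds kinases, lay on both sides of equal expression. Of 13 genes of the myosin phosphatase and its control 1 was lower, beside 10.4% of all genes, and 0 were higher, beside 6.08%, at a median log2 ratio of -0.09, beside -0.07 for all genes. The lower one was Pak1, a kinase that acts on the cytoskeleton, at 1.63 FPKM in the Cre library and 4.78 FPKM in the control library. Ppp1r12b, the myosin-targeting subunit of striated muscle, had 16.0 FPKM in the Cre library and 7.63 FPKM in the control library, giving a log2 ratio of 0.98 at the edge of the rule. Ppp1r12a, the smooth muscle form, had 29.2 FPKM with Cre and 28.5 FPKM in the control, and the catalytic subunit Ppp1cb 132 FPKM with Cre and 128 FPKM in the control. The phosphatase inhibitor genes Ppp1r14c and Ppp1r14b went in opposite directions, with log2 ratios of 0.93 and -0.91. None of 3 calmodulin genes passed the rule, the furthest from equal expression being Calm2 at 275 FPKM in the Cre library and 413 FPKM in the control library.

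Of the heavy chains that carry these light chains, 8 cardiac and skeletal ones were listed, and 2 had a completed comparison, Myh7 and Myh7b. Both were higher. Myh6, whose comparison was not completed, had 628 FPKM in the control library, beside 45.2 FPKM for Myh7, and cannot be compared. The other listed ones had no value. Of 4 smooth and non-muscle ones 2 were higher and 1 was lower. Over all genes 6.08% were higher and 10.4% lower. Myh7b, a slow heavy chain, had 4.54 FPKM in the Cre library and 0.787 FPKM in the control library, giving a log2 ratio of 1.63, beside 1.61 for Myh7. Myh11, the smooth muscle heavy chain that binds Myl9 and Myl6, had 61.8 FPKM in the Cre library and 27.4 FPKM in the control library, giving a log2 ratio of 1.14. The non-muscle heavy chains were split, with Myh14 at 24.0 FPKM in the Cre library and 5.62 FPKM in the control library, and Myh9 at 25.7 FPKM in the Cre library and 62.5 FPKM in the control library. Myh10 had a log2 ratio of 0.86.

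By level in both libraries, few genes lay close to Myl7. The nearest of the genes tested were Fabp4, Tpm1 and Scgb1a1, at distances of 0.98, 1.08 and 1.16 in log2(FPKM + 1) over the 2 libraries. The nearest to Myl2 was Atp2a2, the cardiac calcium pump, at 1289 FPKM in the Cre library and 528 FPKM in the control library, a distance of 0.11. Cox6a2, a mitochondrial gene, lay at a distance of 0.41 from Myl2 and 0.22 from Myl9, and Atp5a1, also mitochondrial, at 0.24 from Myl9. With 2 libraries such nearness describes 2 values only.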

How the data were processed

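Poly-A RNA was sequenced from mouse sinoatrial node. The submitters' processing notes name TopHat, Bowtie, Cufflinks and the build mm9. No version, annotation, strand setting or scaling between libraries was found in the labels or the header. The authors deposited 1 FPKM value per gene and library, and beside it a test score, a p-value, a q-value and a log2 fold change, per the file headers. The deposited log2 values equal Cre over control to within 1.38e-05. Because FPKM is relative to a library's total, abundant transcripts lower all others. Depth is unknown.

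From 15967 rows, 2 (Nppa and Myh6) whose comparison the authors did not complete were treated as missing. Ratios used a pseudocount of 1, a minimum mean of 1 FPKM and a 2-fold rule, and left out 32 small-RNA rows. The ratio code was checked on control values multiplied by known folds without noise. Recovery was fixed in advance, so this checks the code only. No member's row overlaps another row. The members and lists were chosen with earlier results of these data known. Named genes are all members, up to 4 per pathway list by absolute ratio, up to 3 per marker list by level, and the 3 nearest genes of Myl7, Myl2 and Myl9, of which 1 is not reported here. Other genes were added to these after their values were seen, for their role: Ppp1r12a, Ppp1cb, Mylk2, Kcnj5, Irx4, Hcn4, Arid1a and Xist. Pvalb and Actn3 were added in the same way, for their direction. Promoter windows are from RefSeq (GRCm38.p6); all 10 members matched, and 8 had a window within 50 bases of the GENCODE M21 start of the measured transcript. Python 3.11.15, pandas 2.3.3 and numpy 2.4.6 were used.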

Additional observations from a re-analysis of the deposited data

How the results depend on the processing

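No paired analysis was possible because each genotype has 1 library, and no library could be left out. The count of 3 members at least 2-fold higher fell to 0 when ratios were centred on contractile genes, beside 0.619% of all genes. It fell to 1 (Myl3) when centred on fibroblast and endothelial genes, beside 2.39%. It was 2 with a pseudocount of 5, beside 1.78%, and 4 with the same upper quartile, beside 10.3%. The count of 1 lower became 0 with a minimum mean of 5 FPKM, beside 10.8% of all genes. Centring on contractile genes gave class log2 ratios of -0.61 for atrial, 0.42 for ventricular, -0.42 for fast skeletal and -0.34 for smooth and non-muscle light chains, and -0.14 for the kinases. Centring on fibroblast and endothelial genes gave -0.14 for atrial and 0.89 for ventricular chains. These shifts follow from the constants subtracted, 0.88 and 0.42. The log2 difference of the atrial to ventricular ratio was -1.03, and -0.85 for the regulatory pair alone. Of the members' own log2 ratios under other settings, 44 kept their direction and side of the size rule, 6 no longer passed it, 1 newly passed it, and 9 that had not passed it changed sign. Read depth is unknown, so its limit on a value such as that of Mylpf, under 1 FPKM in the Cre library, cannot be given.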
